A study of Mus musculus with 3 samples.

Results

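Ptgs1, Ptgs2, Ptges, Hpgd, Ptgis, Ptgds, Ptger2, Ptger3 and Ptger4 are mouse genes of prostaglandin synthesis, breakdown and reception, and they make up 9 of the 31053 mouse features counted in the study. They were picked by symbol with their UMI levels in these same libraries known, so that the levels below are a description. The study measured single-cell RNA in bladder assembloids, organoid-like constructs in which dissociated cells are put back together, and in the bladder itself. There were 3 groups with 1 library each: assembloids 7 days after reconstitution (a pool of 3 assembloids), assembloids 1 day after reconstitution (a pool of 3), and bladders of wild-type C57BL/6 mice aged 8 to 9 weeks (a pool of 8). The labels do not say which cells the assembloids were built from. With 1 pooled library per group there was no spread between replicates, no test was run, and every interval below is a 95% interval of counting error alone.

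Prostaglandins are lipid signals made on demand from arachidonic acid. The cyclooxygenases encoded by Ptgs1 and Ptgs2 make a common precursor, and a terminal synthase then turns it into 1 product: the Ptges enzyme into prostaglandin E2, the Ptgis enzyme into prostacyclin and the Ptgds enzyme into prostaglandin D2. The Hpgd enzyme, a dehydrogenase, inactivates prostaglandin E2, and Ptger2, Ptger3 and Ptger4 encode cell-surface receptors for it. In the bladder, prostaglandins released by the epithelium and the muscle wall are known for their effect on muscle tone and on the nerves that sense filling.

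The annotation of GENCODE vM21 places 4 of the 9 genes on mouse chromosome 2 (mm10). They are Ptgs1 (chr2:36230426-36252272, + strand), Ptges (chr2:30889471-30929863, − strand), Ptgis (chr2:167191805-167240604, − strand) and Ptgds (chr2:25466709-25470046, − strand). Ptgs2 lies at chr1:150100031-150108227 (+) and Hpgd at chr8:56294585-56321043 (+). The receptor genes lie at chr14:44988195-45003820 (+) for Ptger2, chr3:157566892-157645888 (+) for Ptger3 and chr15:5206661-5244187 (−) for Ptger4. Ptges overlaps Gm13400 and Hpgd overlaps Gm45540, each on its own strand, and Ptgs1, Ptgis, Ptger2 and Ptger4 overlap genes on the opposite strand, Ttc33 in the case of Ptger4. How the counting treated reads in these overlaps is not given in the sources used here.

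The 250 bases before the start of Ptges and of Hpgd are printed because these genes had the most opposed levels in the urothelium. Those of Ptgs1 and Ptgs2 are printed because these cyclooxygenase genes were highest in different groups of bladder fibroblasts, although both were found in the same cell classes. Sequences are from RefSeq on GRCm38.p6, 5′ to 3′ on the gene's strand, with the core of the hypoxia response element (GCGTG or ACGTG, on either strand) in capitals. Hpgd shows it as CACGC, which is GCGTG on the other strand.
Ptges: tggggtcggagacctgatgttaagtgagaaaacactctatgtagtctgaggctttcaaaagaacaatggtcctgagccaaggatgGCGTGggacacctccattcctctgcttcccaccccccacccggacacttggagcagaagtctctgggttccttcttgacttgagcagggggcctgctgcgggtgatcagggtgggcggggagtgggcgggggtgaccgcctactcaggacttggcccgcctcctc
Hpgd: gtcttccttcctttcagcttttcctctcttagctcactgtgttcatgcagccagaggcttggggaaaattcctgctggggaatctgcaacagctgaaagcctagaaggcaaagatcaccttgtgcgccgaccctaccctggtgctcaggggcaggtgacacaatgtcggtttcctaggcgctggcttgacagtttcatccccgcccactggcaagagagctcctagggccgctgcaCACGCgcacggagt
Ptgs1: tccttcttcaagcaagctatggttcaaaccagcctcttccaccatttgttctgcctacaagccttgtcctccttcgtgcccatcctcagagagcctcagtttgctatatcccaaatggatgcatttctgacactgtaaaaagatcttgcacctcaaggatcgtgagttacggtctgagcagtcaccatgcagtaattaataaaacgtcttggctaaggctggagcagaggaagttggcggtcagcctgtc
Ptgs2: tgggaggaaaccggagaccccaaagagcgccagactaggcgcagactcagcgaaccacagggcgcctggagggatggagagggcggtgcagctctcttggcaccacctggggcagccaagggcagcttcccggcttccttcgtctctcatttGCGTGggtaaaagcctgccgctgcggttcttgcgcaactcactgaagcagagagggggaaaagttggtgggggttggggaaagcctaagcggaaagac
The Ptges stretch is chr2:30903298-30903547 (−), that of Hpgd chr8:56294302-56294551 (+), that of Ptgs1 chr2:36230176-36230425 (+) and that of Ptgs2 chr1:150099781-150100030 (+). The start of Ptges used by RefSeq lies inside the longer GENCODE gene.

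A stretch was found for 8 of the 9 members, all but Ptgis. Over those 8, the letters GCGTG occurred before Ptges, Hpgd, Ptgs2 and Ptger3, and in 28.2% of the 32851 promoter stretches of this length. The letters ACGTG occurred before Ptger3 alone, and in 16.6% of all stretches. The GC box GGGCGG was found before 5 members (Ptgs2, Ptges, Hpgd, Ptger3 and Ptger4) and in 32.7% of all stretches, the E-box CANNTG before 7 members (all of the 8 but Ptger4) and in 66.2%, and the AP-1 site TGANTCA before Ptgds alone and in 6.75%. The TATA box TATAAA, in 12.4% of stretches, and the short core of the cAMP response element TGACG, in 17.8%, occurred before none of the 8. The Ptgs1 stretch had 48.0% G or C and 5 CpG dinucleotides, against 61.6% and 13 for Ptgs2, with 52.4% and 6 as the medians of all stretches. All motifs were searched on both strands, and a match is a run of letters, not a shown site.

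The 7-day library held 120301672 UMIs, the 1-day library 135955678 and the adult bladder library 93560608 (unique molecular identifiers, each standing for 1 captured RNA molecule). After filtering, 8123 mouse cells were kept at 7 days, 8218 at 1 day and 6716 from the bladder. Median depth per cell was 9400 UMIs at 7 days, 14921 UMIs at 1 day and 7544 UMIs in the bladder, taken before cells with a shared barcode were dropped. The 7-day library stood apart in that most of its cells fell into 2 sets. Of the 8123 7-day cells, 4338 (53.4%) lay among 1-day cells, with at most 5% bladder cells among their 30 nearest cells of the other libraries, and are called assembloid-side. Another 3554 cells (43.8%) lay among adult bladder cells, with at least 95%, and are called bladder-side, while 231 lay between. Nearness was taken from gene expression without the prostaglandin genes, so a side's likeness to the library it lay among is partly built in. Median depth was 19942 UMIs in assembloid-side and 3340 in bladder-side cells. The 7-day library shared 114 cell barcodes with the 1-day library and 30 with the adult bladder library, and the 1-day and adult bladder libraries shared 21. Whether the bladder-side cells belonged to the assembloids was not tested, and a level over all 7-day cells, with each ratio made from it, mixes both sets. Member levels in 7-day urothelial-like, fibroblast-like and endothelial-like cells are therefore also given by side where they reached 20 CPM, while other classes and the wider gene list are given for all 7-day cells.

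Levels are CPM, the UMIs of a gene per 1000000 mouse UMIs of a cell class, summed over the class in a library. The cells formed 31 clusters, of which 24 were named "-like" from marker genes and 7 took no name. Unnamed cells were 2189 of 8123 at 7 days, 4072 of 8218 at 1 day and 36 of 6716 in the bladder. They held 49.5% of kept UMIs at 7 days, 56.1% at 1 day and 0.0919% in the bladder, and class levels leave them out. Urothelial-like cells were clusters 8 and 30 at 1 day and clusters 1, 3 and 14 in the bladder. Fibroblast-like cells were clusters 0 and 7 at 1 day and 2 and 16 in the bladder. Endothelial-like cells were clusters 15, 22 and 28 at 1 day and 17, 18, 20 and 22 in the bladder, and the 7-day library held cells of all these clusters. Between the 1-day assembloids and the bladder, the urothelial-like and fibroblast-like classes were thus held by different clusters, and the endothelial-like class shared cluster 22 alone, with 55 of 445 cells at 1 day and 213 of 1120 in the bladder. The assembloid fibroblast-like cells met the markers only partly: fibroblast markers summed to 22700 CPM in 7-day cells and 14330 CPM in 1-day cells, against 63900 CPM in bladder cells, and smooth muscle markers to 11850 CPM and 19420 CPM, against 295 CPM. Whether this mixed identity bears on the prostaglandin genes was not tested.

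The 9 genes divided the tissue between them. Most Hpgd and Ptger4 UMIs of the adult bladder lay in urothelial-like cells, which held 73.8% of all kept bladder UMIs. These cells held 92.8% of all 8823 Hpgd UMIs of kept cells and 87.3% of all 3750 Ptger4 UMIs. Hpgd had 128 CPM in them and 184 CPM in myeloid-like cells, and Ptger4 had 51.2 CPM and 52.6 CPM. Every other named class was lower for both genes. Ptgis was a stromal gene, with 82.9% of its 6286 UMIs in fibroblast-like cells. Ptges lay with the fibroblast-like cells too (69.4% of 1303 UMIs), and Ptger3 with the mesothelial-like cells (77.8% of 171 UMIs in 51 cells). Of the 2545 Ptgs1 UMIs, 31.4% lay in endothelial-like cells, which held 8.01% of all kept bladder UMIs, and 52.7% in urothelial-like cells, which held 73.8%, so that Ptgs1 was above its even share in the endothelium and under it in the urothelium. Fibroblast-like cells held 9.66% of all UMIs and mesothelial-like cells 0.751%.

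**Figure D1:**
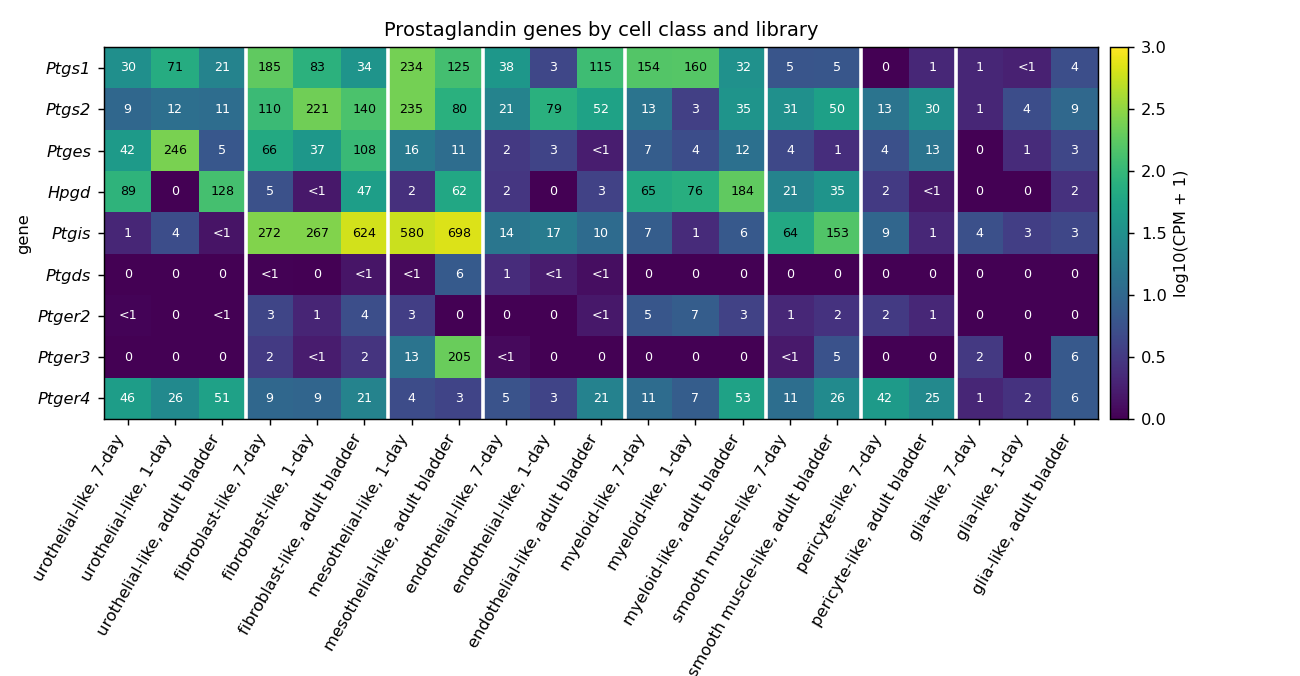
Level of each of the 9 genes (rows) in each named cell class and library (columns, 7-day, 1-day and adult bladder within a class), with CPM printed in each cell and colour on a log10(CPM + 1) scale; classes with under 50 cells in a library are left out. Ptges and Hpgd are opposed in urothelial-like cells, with 246.5 and 0 CPM at 1 day against 5.50 and 128 CPM in the bladder, and Ptgds is near 0 in every column.

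Among the cyclooxygenases, Ptgs1 had 30.1 CPM (27.6 to 32.8) in all 7-day urothelial-like cells, 71.1 CPM (63.2 to 79.7) in 1-day cells and 21.0 CPM (19.9 to 22.2) in adult bladder cells. Within the 7-day library the assembloid-side cells had 72.7 CPM and the bladder-side cells 21.6 CPM, each within counting error of the library that side lay among. The level also differed between the urothelial-like clusters of the bladder. In the adult bladder cluster 14, whose leading genes include the basal cell genes Krt15, Krt5 and Trp63, had 66.6 CPM (60.2 to 73.6), with 14.97 CPM in cluster 1 (led by Areg, Krt23 and Ivl) and 18.5 CPM in cluster 3 (led by Upk2 and Upk3a, genes of the luminal plaque). The assembloid cluster 8 had 72.9 CPM at 7 days and 72.3 CPM at 1 day, a log2 ratio of 0.12 (-0.11 to 0.34) between its 1-day cells and the bladder's cluster 14. The higher class level at 1 day was thus not seen against cluster 14 alone. Unnamed cluster 10, assembloid cells with many urothelial markers that are described below, was lower than cluster 8. It had 24.8 CPM (19.1 to 31.6) at 7 days and 29.5 CPM (24.3 to 35.5) at 1 day.

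Ptgs2, the cyclooxygenase known to be induced by injury and cytokines, was low in the urothelium throughout. Urothelial-like cells had 9.07 CPM at 7 days, 11.5 CPM at 1 day and 10.96 CPM in the bladder, all under the 20 CPM at which a gene was counted as measured. By side, the 7-day level was 1.87 CPM (0.608 to 4.37), from 5 UMIs, in assembloid-side and 10.4 CPM in bladder-side cells. The level of Ptgs2 lay in the stroma. In fibroblast-like cells Ptgs2 had 110.2 CPM (106.5 to 114.0) at 7 days, 221 CPM (216 to 226) at 1 day and 139.6 CPM (132 to 148) in the bladder. The 7-day level was 111 CPM in assembloid-side and 101 CPM in bladder-side cells.

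In fibroblast-like cells Ptgs1 was the gene that was higher in both assembloid libraries. It had 185 CPM (180.1 to 189.8) in 7-day cells, 83.2 CPM (80.2 to 86.2) in 1-day cells and 34.4 CPM (30.5 to 38.6) in bladder cells. Assembloid-side 7-day cells had 196 CPM and bladder-side ones 39.7 CPM. The clusters differed from each other within each library. Cluster 7, led by Saa3, Mmp3 and Igf1, had 251 CPM of Ptgs1 at 7 days and 226 CPM at 1 day, whereas cluster 0, led by Tnfsf15 and Aldh1a3, had 97.1 CPM at 7 days and 71.2 CPM at 1 day. Cluster 7 made up 936 of the 2148 fibroblast-like cells at 7 days and 201 of the 1898 at 1 day, so the 7-day to 1-day ratio of the class (log2 1.15) was larger than that within cluster 0 (0.45, interval 0.34 to 0.56) or cluster 7 (0.15, interval 0.03 to 0.28). In the bladder, cluster 16, led by Car3, Rbp4 and Scara5, had 97.1 CPM and cluster 2, led by Dpt, Clec3b and Pi16, 2.53 CPM, a log2 ratio of 5.22 (4.49 to 6.16). Ptgs2 ran the other way between these 2 clusters, with 46.6 CPM in cluster 16 and 187 CPM in cluster 2, a log2 ratio of -1.998 (-2.28 to -1.74).

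The endothelial-like cells gave the opposite direction for Ptgs1. It had 37.8 CPM (32.9 to 43.3) in all 7-day cells, 3.38 CPM (1.89 to 5.57) in 1-day cells, from 15 UMIs, and 115 CPM (107.5 to 123.7) in bladder cells. Bladder-side 7-day cells had 110.3 CPM and assembloid-side ones 3.66 CPM, again like the library each lay among. Within the bladder the vessel clusters differed. Cluster 17, led by the venule genes Selp and Ackr1 and by Vwf, had 269 CPM of Ptgs1, cluster 20 (led by Cd36, Fabp4 and Gpihbp1) 94.2 CPM and cluster 18 (Gkn3, Cldn5 and Sema3g) 37.3 CPM. Ptgs2 had 113 CPM in cluster 17, 68.8 CPM in cluster 18 and 1.05 CPM in cluster 20, so cluster 20 had Ptgs1 with hardly any Ptgs2. The 1-day library had no cells of clusters 17, 18 and 20. Cluster 22, the one endothelial-like cluster found in both, had 0 Ptgs1 UMIs in 55 1-day cells and 2 in 213 bladder cells, too few to compare.

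Ptgs2 in the assembloid endothelium was lower at 7 days than at 1 day. Endothelial-like cells had 14.4 CPM on the assembloid side and 36.2 CPM on the bladder side at 7 days, 79.2 CPM at 1 day and 52.3 CPM in the bladder. Cluster 15, led by Apln, Esm1 and Angpt2, had 16.02 CPM (11.8 to 21.3) in 287 7-day cells, against 95.9 CPM (86.0 to 107) in 360 1-day cells, a log2 ratio of -2.57 (-3.05 to -2.14). A lower 7-day level was also seen in fibroblast-like cluster 0 (119.5 CPM at 7 days and 226 CPM at 1 day, log2 ratio -0.92, interval -1.01 to -0.83) and cluster 7 (106 CPM at 7 days and 163 CPM at 1 day, log2 ratio -0.62). Urothelial-like cluster 8 was lower too, at levels under 20 CPM, with 1.97 CPM at 7 days and 12.05 CPM at 1 day. Mesothelial-like cluster 24 had 164.5 CPM in 16 7-day cells and 234.9 CPM in 204 1-day cells. Unnamed cluster 6 had 107.2 CPM at 7 days and 118.4 CPM at 1 day, with intervals that overlap. The intervals of unnamed cluster 10 overlap likewise, at 2.67 CPM at 7 days and 6.05 CPM at 1 day. Not every cluster was lower at 7 days. In the unnamed clusters 4 and 5, led by Crabp1 and by Spp1, the 7-day to 1-day log2 ratios were -0.04 (-0.11 to 0.03) and -0.06 (-0.14 to 0.02), and in the unnamed cycling cluster 9 the ratio was 0.37 (0.26 to 0.47). The unnamed clusters held 68.8% of the 12006 Ptgs2 UMIs at 7 days and 51.0% of the 19667 at 1 day.

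**Figure D2:**
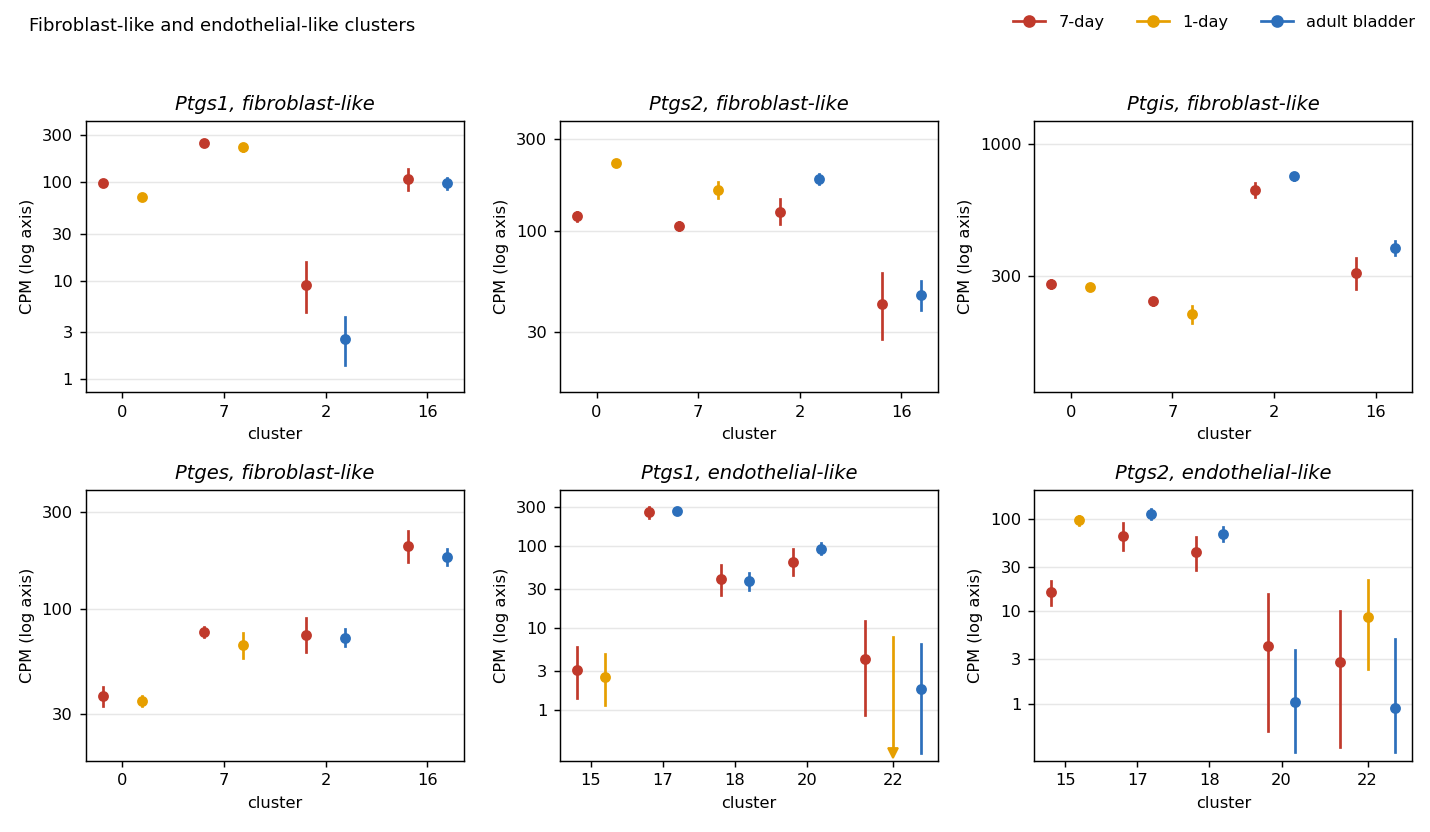
CPM on log axes (points) with exact 95% Poisson intervals (lines, counting error only) of 4 genes in fibroblast-like clusters 0, 7, 2 and 16 and of 2 genes in endothelial-like clusters 15, 17, 18, 20 and 22, by library; the triangle marks a value of 0. Ptgs1 is at 97.1 CPM in cluster 16 and 2.53 CPM in cluster 2 of the bladder, and Ptgs2 in cluster 15 is at 16.02 CPM at 7 days and 95.9 CPM at 1 day.

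Of the terminal synthases, Ptges differed most between assembloid and bladder urothelium. It had 42.3 CPM (39.2 to 45.4) in all 7-day urothelial-like cells, 246.5 CPM (232 to 262) in 1-day cells and 5.50 CPM (4.94 to 6.10) in bladder cells. Assembloid-side 7-day cells had 240.1 CPM (222 to 260) and bladder-side ones 5.60 CPM (4.44 to 6.96), so the intermediate level of the whole 7-day class was that of no set of its cells. Cluster 8 had 245.5 CPM at 7 days and 251 CPM at 1 day, a log2 ratio of -0.03 (-0.18 to 0.11). Unnamed cluster 10, led by Ghrh, Fxyd4 and Ndufa4l2, had 363 CPM at 7 days and 378 CPM at 1 day. Of 21 urothelial markers 15 counted for cluster 10, but its 10 leading genes held none of them and 1 pericyte marker, so it was kept out of the class.

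Among the bladder's urothelial clusters, Ptges was highest in cluster 14, at 22.8 CPM (19.1 to 27.1), with 3.46 CPM in cluster 1 and 4.18 CPM in cluster 3. The 1-day cells of cluster 8 were thus above cluster 14 too, by a log2 ratio of 3.45 (3.19 to 3.73). At an equal depth of 2500 UMIs per cell, 9.32% (95% Clopper-Pearson interval 8.00 to 10.8) of 1738 urothelial-like cells at 7 days, 44.9% (41.3 to 48.6) of 728 at 1 day and 1.40% (0.99 to 1.92) of 2645 in the bladder had a Ptges UMI. By side, the 7-day share was 45.0% (39.4 to 50.7) of 313 assembloid-side cells and 1.34% (0.809 to 2.09) of 1417 bladder-side cells. Without thinning these shares were 17.9% at 7 days, 66.1% at 1 day and 9.57% in the bladder, at median depths of 8443 UMIs at 7 days, 4675 at 1 day and 21368 in the bladder. Endothelial-like cells, taken as cells that should lack the gene, had a thinned share of 0.64% at 7 days, 0.467% at 1 day and 0 of 978 cells in the bladder, where 3 cells would be 0.307%. Thinning left out 68 urothelial-like cells at 7 days, 54 at 1 day and 40 in the bladder, and 355, 17 and 142 endothelial-like cells of the same libraries. The median depth of the endothelial-like cells was 3697 UMIs at 7 days, 9228 at 1 day and 4958 in the bladder.

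Ptges in fibroblast-like cells ran the other way. It had 65.9 CPM (63.0 to 68.8) at 7 days, 37.4 CPM (35.5 to 39.5) at 1 day and 108 CPM (101 to 116) in the bladder. Assembloid-side 7-day cells had 62.2 CPM and bladder-side ones 115 CPM. Bladder cluster 16, in which Ptgs1 was also high, had 180.0 CPM, and cluster 2 had 71.8 CPM. The 7-day cells of these 2 clusters had 203.5 CPM and 74.2 CPM. In the assembloids, cluster 7 again stood above cluster 0, with 76.6 CPM and 36.8 CPM at 7 days and 65.7 CPM and 35.1 CPM at 1 day.

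Ptgis, the prostacyclin synthase, was the stromal member. In fibroblast-like cells it had 272.5 CPM (267 to 278.5) at 7 days, 267 CPM (261 to 272) at 1 day and 624 CPM (607 to 641) in the bladder. The 7-day level was 252 CPM in assembloid-side and 548.5 CPM in bladder-side cells, and the log2 ratio of 7-day over 1-day cells was 0.03 (-0.01 to 0.07) for the whole class and -0.08 (-0.13 to -0.04) on the assembloid side. Mesothelial-like cells had 579.9 CPM at 1 day and 698 CPM in the bladder. The 1-day cells met this name weakly, with mesothelial markers summing to 309 CPM, against 8376 CPM in the bladder's mesothelial-like cells. The same markers summed to 232 CPM in the bladder's urothelial-like cells. In the bladder the other levels were 153 CPM in smooth muscle-like cells, where cluster 26 alone had 429.7 CPM and cluster 11 had 86.6 CPM, and 10.2 CPM in endothelial-like cells, where cluster 18 had 33.1 CPM. Urothelial-like cells had 1.10 CPM at 7 days, 4.08 CPM at 1 day and 0.454 CPM in the bladder.

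Ptgds was close to undetected. All kept cells held 12 of its UMIs at 7 days, 4 at 1 day and 10 in the bladder, and its highest level in any class was 6.16 CPM (1.68 to 15.8), from 4 UMIs in the 51 mesothelial-like cells of the bladder. Urothelial-like cells had 0 UMIs in all 3 libraries, where 3 counts over the class would be 0.174 CPM at 7 days, 0.721 CPM at 1 day and 0.047 CPM in the bladder.

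Between assembloid and bladder urothelium, Hpgd, which inactivates prostaglandin E2, ran opposite to Ptges, although within the bladder both were highest in cluster 14. It had 88.9 CPM (84.5 to 93.5) in all 7-day urothelial-like cells, 0 of 4161731 UMIs in 1-day cells and 128 CPM (125.5 to 131.0) in bladder cells. Set to 3 counts over the whole class, the most that 0 was taken to allow, 1-day cells were still at least 178-fold lower than bladder cells. Bladder-side 7-day cells had 105 CPM (99.9 to 110.6) and assembloid-side ones 2.25 CPM (0.825 to 4.89), from 6 UMIs. The bladder-side level was thus under that of the bladder by more than counting error, though within 2-fold. Unlike Ptges and Ptgs1, Hpgd differed little between the bladder's urothelial clusters, with 156 CPM in cluster 14, 125 CPM in cluster 1 and 127 CPM in cluster 3, and a log2 ratio of 0.32 (0.22 to 0.43) between clusters 14 and 1. Cluster 10 had 2.29 CPM at 7 days and 0.263 CPM (0.00666 to 1.47) at 1 day, from 1 UMI.

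At 2500 UMIs per cell, 18.5% (16.7 to 20.4) of 7-day urothelial-like cells, 0 of 728 at 1 day, where 3 cells would be 0.412%, and 26.4% (24.8 to 28.2) of bladder cells had an Hpgd UMI. By side, the 7-day share was 1 of 313 assembloid-side cells (0.32%, interval 0.00809 to 1.77) and 22.6% (20.4 to 24.9) of 1417 bladder-side cells. Of thinned endothelial-like cells, 0.64% at 7 days, 0 of 428 at 1 day and 1.12% in the bladder had one. Unthinned, 45.5% of 7-day, 0% of 1-day and 81.0% of bladder urothelial-like cells had an Hpgd UMI.

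**Figure D3:**
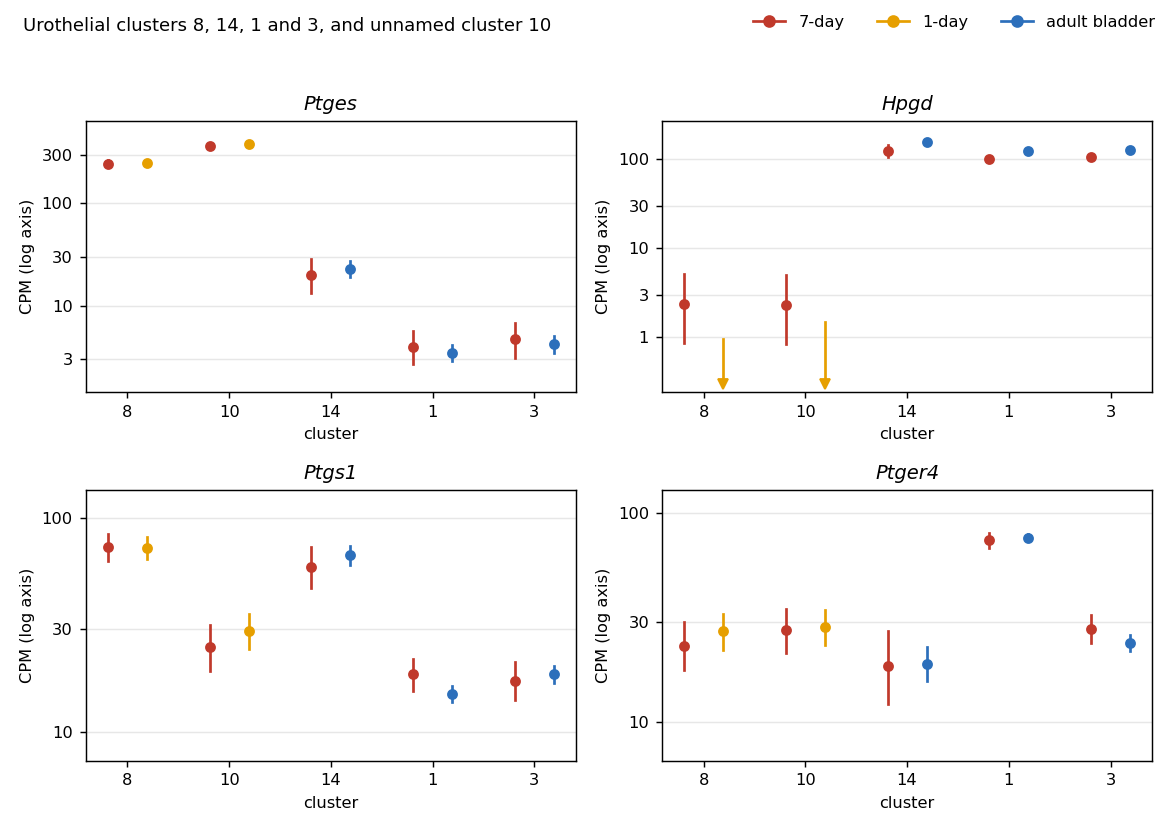
CPM on log axes (points) with exact 95% Poisson intervals (lines, counting error only) of Ptges, Hpgd, Ptgs1 and Ptger4 in urothelial-like clusters 8, 14, 1 and 3 and in unnamed cluster 10, by library; triangles at the bottom mark values below the axis. The 7-day cells of each cluster are drawn beside the 1-day or adult bladder cells of the same cluster. Ptges in cluster 8 is at 245.5 CPM at 7 days and 251 CPM at 1 day. Hpgd is lower at 7 days than in the bladder, with intervals apart, in clusters 14 (124 and 156 CPM), 1 (101 and 125 CPM) and 3 (105.5 and 127 CPM). In cluster 8 it is at 2.36 CPM at 7 days and 0 at 1 day, and in cluster 10 at 2.29 and 0.263 CPM.

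Outside the urothelium Hpgd was found in mesothelium, stroma and myeloid cells. Mesothelial-like cells had 1.59 CPM (0.686 to 3.13) at 1 day and 61.6 CPM (44.0 to 83.9) in the bladder, from 40 UMIs, and their urothelial markers summed to 1360 CPM at 1 day and 3842 CPM in the bladder. Their mesothelial markers summed to 309 CPM at 1 day and 8376 CPM in the bladder, so the 1-day cells met their name weakly. Fibroblast-like cells had 4.596 CPM (3.86 to 5.43) at 7 days, 0.551 CPM (0.336 to 0.851) at 1 day and 46.9 CPM (42.4 to 51.8) in the bladder, with 1.49 CPM in assembloid-side and 47.0 CPM in bladder-side 7-day cells. Urothelial markers summed to 319 CPM in the bladder's fibroblast-like cells and to 28170 CPM in its urothelial-like cells, with each of the 21 markers detected in both. The part of urothelial RNA in these levels was not tested. Smooth muscle-like cells had 21.0 CPM at 7 days and 34.8 CPM in the bladder. The bladder level rested on cluster 26, whose 68 cells had 170.0 CPM (139.7 to 204.9), from 110 of the 117 UMIs of the class. The 542 bladder cells of cluster 11 had 2.58 CPM (1.04 to 5.32), from 7 UMIs. Myeloid-like cells had 65.2 CPM (48.3 to 86.3) at 7 days, 75.7 CPM (57.2 to 98.3) at 1 day and 184 CPM (141 to 235) in the bladder. The 1-day library held 96 Hpgd UMIs in all its kept cells, and 58.3% of them lay in its 85 myeloid-like cells.

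The myeloid-like cells numbered 86 at 7 days, 85 at 1 day and 64 in the bladder and met 11 markers, among them Csf1r and the C1q genes. Ptgs1 had 154.5 CPM (128 to 185) at 7 days, 159.5 CPM (132 to 191) at 1 day and 32.1 CPM (16.03 to 57.5) in the bladder. Ptger4 had 10.7 CPM at 7 days, 6.76 CPM at 1 day and 52.6 CPM (31.1 to 83.1) in the bladder. Urothelial markers summed to 194 CPM in 7-day, 306 CPM in 1-day and 3936 CPM in bladder myeloid-like cells, with 4 of the 21 at 0 at 7 days, 3 at 1 day and 1 (Krt20) in the bladder, while the bladder's urothelial-like cells had 51.2 CPM of Ptger4. The part of urothelial RNA in the bladder's myeloid values was not tested. Hpgds, which makes prostaglandin D2 in blood-derived cells, was looked at after its values were seen, and had 124 CPM at 7 days, 129.8 CPM at 1 day and 67.2 CPM in bladder myeloid-like cells.

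Among the receptors, Ptger4 was the urothelial one. It had 46.0 CPM (42.9 to 49.4) in all 7-day urothelial-like cells, 25.7 CPM (21.1 to 31.1) in 1-day cells and 51.2 CPM (49.5 to 53.0) in bladder cells. Assembloid-side 7-day cells had 23.98 CPM (18.5 to 30.6) and bladder-side ones 50.2 CPM (46.6 to 54.0). The bladder level rested on 1 cluster. Cluster 1, with Areg and Ivl, had 75.8 CPM (72.9 to 78.8), cluster 3 had 23.9 CPM (22.01 to 25.98) and cluster 14 had 19.1 CPM (15.7 to 23.0). The 7-day cells of these clusters had 73.8, 28.0 and 18.7 CPM. Cluster 8, at 23.2 CPM at 7 days and 27.2 CPM at 1 day, was close to cluster 3 and, with a log2 ratio of 0.51 (0.11 to 0.91) for its 1-day cells, slightly above cluster 14, while the 1-day class as a whole was under the bladder class by a log2 ratio of -0.99 (-1.29 to -0.72).

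Ptger4 was also lower in assembloid fibroblast-like and endothelial-like cells than in those of the bladder. Fibroblast-like cells had 9.03 CPM at 7 days, 8.59 CPM at 1 day and 20.9 CPM in the bladder, and endothelial-like cells had 4.82 CPM at 7 days, 3.15 CPM at 1 day and 20.6 CPM in the bladder. By side, 7-day fibroblast-like cells had 8.68 CPM (assembloid side) and 14.05 CPM (bladder side), and endothelial-like cells 1.97 CPM and 11.3 CPM. Bladder endothelial cluster 18 had 47.5 CPM and cluster 17 had 9.82 CPM, the reverse of their order for Ptgs1. Pericyte-like cells had 41.8 CPM (25.2 to 65.3) at 7 days, from 19 UMIs, and 24.7 CPM (17.9 to 33.3) in the bladder, intervals that overlap, as did those of mesothelial-like cells, with 3.97 CPM (2.42 to 6.13) at 1 day and 3.08 CPM (0.373 to 11.1) in the bladder.

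Ptger3 was a mesothelial gene. The bladder's 51 mesothelial-like cells had 205 CPM (171.5 to 242.7), against 13.1 CPM (10.1 to 16.7) in 204 1-day cells, a log2 ratio of -3.96 (-4.41 to -3.53). At 2500 UMIs per cell, 3.46% (1.40 to 7.01) of 202 1-day cells and 48.0% (33.7 to 62.6) of 50 bladder cells had a UMI. These are different clusters, 24 and 27, and mesothelial markers summed to 309 CPM at 1 day and 8376 CPM in the bladder, so the 1-day cells met their label weakly, on 4 markers. The 7-day library had 41 such cells, under the 50 asked of a class, so it has no class level. By cluster, its 16 cells of cluster 24 had 50.6 CPM (28.9 to 82.2), from 16 UMIs. Its 25 cells of cluster 27 had 293 CPM (204 to 407), from 35 UMIs. No other class passed 6 CPM, although cluster 26, part of the bladder's smooth muscle-like cells, had 13.9 CPM (6.36 to 26.4), and urothelial-like and myeloid-like cells had 0 Ptger3 UMIs in all 3 libraries. Mesothelial-like cells also had 234 CPM of Ptgs1 at 1 day and 125 CPM in the bladder, and 235 CPM of Ptgs2 at 1 day and 80.1 CPM in the bladder. Smooth muscle markers summed to 10020 CPM in the 1-day and 1743 CPM in the bladder mesothelial-like cells. Fibroblast markers summed to 6311 CPM in the 1-day and 24180 CPM in the bladder cells. The part of such RNA in the values was not tested.

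Ptger2 was scarce. Its highest class level was 6.76 CPM (2.19 to 15.8), from 5 UMIs in 1-day myeloid-like cells, and its highest levels in clusters of over 50 cells were 10.9 CPM at 7 days and 10.3 CPM (6.91 to 14.8) in the bladder, both in fibroblast cluster 16, where Ptges was also high. Fibroblast-like cells had 3.21 CPM at 7 days, 1.02 CPM at 1 day and 4.19 CPM in the bladder.

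To set libraries side by side, a gene entered a comparison where either library reached 20 CPM, and a 2-fold ratio or more, up or down, was called higher or lower by its size alone. In urothelial-like cells 4 of the 9 genes were measured. At 1 day against the bladder, Ptgs1 (log2 ratio 1.76, interval 1.57 to 1.94) and Ptges (5.49, interval 5.31 to 5.67) were higher and Hpgd was lower, where 19.9% of 5825 measured genes passed the same fold. In 7-day cells against the bladder, Ptges was higher (2.94, interval 2.76 to 3.13) and no member was lower, with 0.664% of 4968 genes past the fold. Split by side, 4 members passed in assembloid-side cells (Ptgs1 and Ptges higher, Hpgd and Ptger4 lower), where 19.4% of 5785 genes passed, and none in bladder-side cells, where 0.247% of 4867 passed. At 7 days against 1 day, Hpgd was higher and Ptgs1 and Ptges were lower, with 13.9% of 5734 genes past the fold, and in assembloid-side cells none of the members passed, where 0.322% of 5592 genes did, while in bladder-side cells the same 3 passed, where 19.8% of 5771 genes did.

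In fibroblast-like cells 6 of the 9 genes were measured against the bladder. At 1 day Ptgs1 was higher (1.27, interval 1.10 to 1.46), and Ptges (-1.53, interval -1.65 to -1.41), Hpgd (-6.38, interval -7.14 to -5.77), Ptgis (-1.23, interval -1.28 to -1.18) and Ptger4 (-1.29, interval -1.56 to -1.01) were lower, where 37.0% of 6369 genes passed. At 7 days Ptgs1 was higher (2.43, interval 2.26 to 2.60), and Hpgd, Ptgis and Ptger4 were lower at log2 ratios of -3.35, -1.20 and -1.22, where 27.6% of 6315 genes passed, while the same 4 passed in assembloid-side cells, where 30.3% of 6348 genes did, and none in bladder-side cells, where 0.172% of 5798 genes did. At 7 days against 1 day Ptgs1 was higher and Ptgs2 lower (-1.003, interval -1.06 to -0.94), where 4.46% of 5580 genes passed. The Ptgs1 ratio was 1.23 in assembloid-side cells and -1.06 in bladder-side cells, and the Ptgs2 ratio was -0.99 in assembloid-side cells, just short of 2-fold, where 3.1% of 5514 genes passed in assembloid-side and 36.2% of 6307 in bladder-side cells. Both calls depended on which cells were taken: with doublets kept the ratios were 0.10 for Ptgs1 and -0.66 for Ptgs2, and with cells classed singly by their marker UMIs 0.76 and -0.60.

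In endothelial-like cells Ptgs1 (-5.05, interval -5.94 to -4.36) and Ptger4 (-2.67, interval -3.62 to -1.92) were lower at 1 day than in the bladder, with 44.9% of 6979 genes past the fold. At 7 days Ptgs1, Ptgs2 and Ptger4 were lower than in the bladder (-1.61, -1.33 and -2.08), with 21.4% of 6621 genes past it, and the same 3 were lower in assembloid-side cells, with 41.0% of 6847 genes past it. At 7 days against 1 day Ptgs1 was higher (3.44) and Ptgs2 lower (-1.93, interval -2.25 to -1.63), with 10.5% of 6408 genes past it. In assembloid-side cells Ptgs2 was still lower (-2.45, interval -2.92 to -2.04), with 2.21% of 6072 genes past the fold, while Ptgs1 was under 20 CPM in both, at 3.66 CPM at 7 days and 3.38 CPM at 1 day, a log2 ratio of 0.12 (-1.07 to 1.29). In bladder-side cells both calls held, with 43.7% of 6897 genes past the fold. In bladder-side cells against the bladder, Ptgs1, Ptgs2 and Ptger4 were within 2-fold, and Ptgis was higher, at 20.9 CPM at 7 days and 10.2 CPM in the bladder, a log2 ratio of 1.04 (0.42 to 1.62), where 0.573% of 6113 genes passed. The 2 comparisons with the bladder share its library, and the other pairs share a library likewise.

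**Figure D4:**
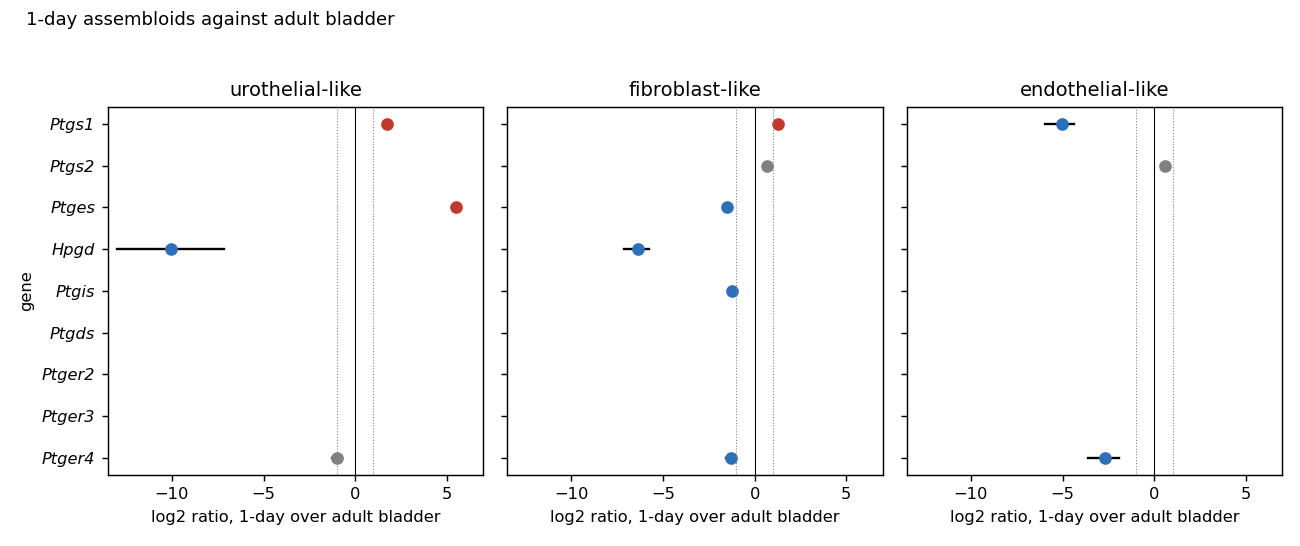
Log2 ratio of 1-day assembloids over adult bladder (x axis) for the measured members (rows) in urothelial-like, fibroblast-like and endothelial-like cells; lines are exact 95% intervals (counting error only), the dotted lines mark 2-fold, and red, blue and grey points are higher, lower and within 2-fold. The interval of Hpgd in urothelial-like cells has no lower end, since 1-day cells had 0 UMIs, and its line is drawn short; Ptgs1 is at 1.76 and 1.27 in the first 2 classes and at -5.05 in endothelial-like cells.

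Members were also compared cluster by cluster, among clusters with 100 or more cells in both libraries. Against 1 day, 2 of 31 measured member values in 10 clusters were at least 2-fold apart, where 0.974% of 54303 values of all genes were, and against the bladder 1 of 29 in 12 clusters was, where 4.81% of 70440 were. These were Ptgs1 in the unnamed cycling cluster 6, with 251 CPM at 7 days and 90.9 CPM at 1 day, and Ptgs2 in endothelial cluster 15 and in pericyte cluster 13, the last with 13.2 CPM at 7 days, from 6 UMIs, and 30.5 CPM in the bladder.

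**Figure D5:**
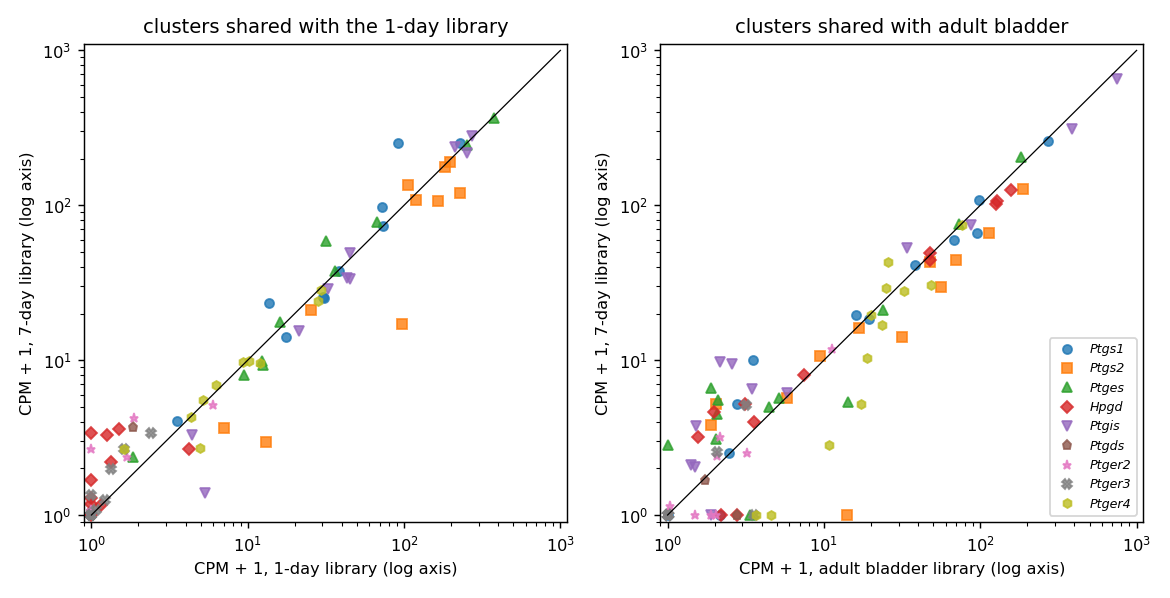
Level of each of the 9 genes in each cluster with at least 100 cells in both libraries, in the 7-day library (y axis) against the 1-day library (left) or the adult bladder library (right), as CPM + 1 on log axes, with the line of equality; colours and symbols stand for genes. Most points of higher level lie near the line, and Ptgs2 in cluster 15 (16.02 and 95.9 CPM) and Ptgs1 in cluster 6 (251 and 90.9 CPM) lie off it in the left panel.

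A wider list of genes of arachidonic acid release, prostaglandin synthesis, transport, breakdown and reception, with 55 of 58 symbols found, was set beside the 9. In urothelial-like cells at 1 day against the bladder 16 were measured, of which 3 were higher (Fam213b, Abcc4 and Cyp2j6) and 4 lower (Akr1b3, Slco3a1, Ptgr1 and Alox12), with a median log2 ratio of 0.23, as over all measured genes (0.23), of which 19.9% passed the fold. Akr1b3, an aldose reductase that in the mouse also makes prostaglandin F2, had 2364 CPM at 7 days, 588 CPM at 1 day and 2543 CPM in the bladder. Ptgr1, a reductase of the breakdown route after the Hpgd step, had 142 CPM at 7 days, 49.5 CPM at 1 day and 151 CPM in the bladder. Slco3a1, a transporter that takes up prostaglandins, had 24.9 CPM at 7 days, 6.01 CPM at 1 day and 28.2 CPM in the bladder. Alox12, a lipoxygenase that competes for arachidonic acid, had 20.2 CPM at 7 days, 7.45 CPM at 1 day and 22.05 CPM in the bladder. Abcc4, an exporter of prostaglandins, had 43.5 CPM at 7 days, 75.5 CPM at 1 day and 37.5 CPM in the bladder. Fam213b, a prostaglandin F synthase, had 13.2 CPM at 7 days, 28.4 CPM at 1 day and 10.01 CPM in the bladder, and Cyp2j6, a cytochrome P450, had 16.7 CPM at 7 days, 29.1 CPM at 1 day and 14.5 CPM in the bladder.

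At 7 days against the bladder 13 of the list were measured in urothelial-like cells and none passed 2-fold either way, where 0.664% of all genes did, and at 7 days against 1 day 16 were measured, with 4 higher and 1 lower, where 13.9% of all genes passed. In fibroblast-like cells at 1 day against the bladder 18 were measured, 2 were higher and 2 lower, against 37.0% of all genes past the fold. The higher ones were Slco2a1, the prostaglandin transporter, with 31.8 CPM at 1 day and 2.99 CPM in the bladder, and Tbxa2r, the thromboxane receptor, with 22.4 CPM at 1 day and 3.23 CPM in the bladder. The lower ones were Slco3a1, with 21.7 CPM at 1 day and 53.3 CPM in the bladder, and Ptgfrn, a membrane protein that binds the prostaglandin F receptor, with 20.05 CPM at 1 day and 113 CPM in the bladder. At 7 days against the bladder 15 were measured and the same 2 genes were lower (27.6% of all genes passed), and at 7 days against 1 day none of 17 passed (4.46% of all genes). In endothelial-like cells 4 were higher and 3 lower of 14 at 1 day against the bladder, with Slco2a1 among the lower ones, at 12.6 CPM at 1 day and 267 CPM in the bladder, and 1 was higher and 2 lower of 11 at 7 days, where 44.9% and 21.4% of all genes passed.

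To describe which genes had the most similar pattern, log2(CPM + 1) was correlated over the 21 pairs of a class and a library. The points share libraries and differ in depth, and the coefficients are given as a description. Ptgis followed Osr1 (Pearson's r of 0.92), Clmp (0.91) and Adgrd1 (0.91). Ptger3 followed Pcnx2 (0.92), Tmem151a (0.91) and Lgals7 (0.91), and Ptger4 followed Nabp1 (0.87), Gclc (0.85) and Sowahc (0.82). Ptgs1 followed Ptk2b (0.85), Hacd4 (0.81) and Pdpn (0.78), while Ptgs2 followed Meis2 (0.82), Ptgis itself (0.81) and Sulf1 (0.80). Hpgd followed Prkcd (0.79) and Stk17b (0.74), and Ptges followed Fam213a (0.75), Wnt4 (0.75) and Egfr (0.69). Ptgds and Ptger2 never reached the 50 CPM asked of a gene here.

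Within cells, the members were found together about as often as their separate shares give. In the 697 thinned 1-day cells of cluster 8, 13.9% had a UMI of Ptgs1, 45.9% one of Ptges and 6.03% (4.38 to 8.06) one of both, where the product of the shares is 6.39%. In the bladder's fibroblast cluster 16, 5.70% (3.61 to 8.50) had both Ptgs1 and Ptges, where the product is 6.02%. Ptgs2 and Ptgis occurred together in 18.8% (16.3 to 21.7) of cluster 2 cells of the bladder, where the product is 18.1%. Of 10 gene pairs looked at, the interval left out the product for Ptgs1 and Ptgs2 in 7-day cells of cluster 7 alone, with 8.53% (6.81 to 10.5) of 926 cells against a product of 6.71%.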

How the data were processed

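Single cells of 3 libraries (10x 3′ v3 chemistry, per the labels' protocols) were analysed. The deposited files hold raw UMI counts per gene and cell barcode, made with Cell Ranger 3.1.0 against a combined human and mouse gene set, per the file headers, and the submitters' processing notes name the builds GRCh38, mm10 and hg38. The sources used here state neither the settings for calling cells nor the use of strand. The matrices were read as deposited, with barcode and feature lists in matching order.

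Barcodes with at least 90% mouse UMIs were taken as mouse cells and kept with at least 500 genes and under 20% mitochondrial UMIs. Doublets were called with Scrublet in scanpy 1.11.5 and removed (228 at 7 days, 303 at 1 day, 317 in the bladder). Of a barcode found in more than 1 library, only the copy with the most UMIs was kept. Clusters came from 2000 variable genes without the prostaglandin genes, 30 principal components, 15 neighbours and Leiden resolution 1. A name needed at least 4 markers, each in at least 25% of cells and at least 2-fold above the rest with 5 CPM added, and no other class with more markers among the top 10 genes.

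UMIs were summed per class (50 cells or more) and library. Exact 95% Poisson intervals, Clopper-Pearson intervals for shares and exact conditional intervals for ratios cover counting error only, since reads of 1 library are no replicates. Log2 ratios had 0.5 counts added. Shares were taken after thinning to 2500 UMIs. The code for folds and intervals was checked on simulated counts with known folds. All members and, for pathway genes, those past the fold in urothelial-like or fibroblast-like cells were named, with the 3 most alike genes per member, of which 1 for Hpgd is not reported here. The members and lists were chosen with earlier results of these data known. The minimum of 4 markers and the exclusion of cluster 10 were set after the clusters were seen. Alternatives covered cell filters, doublets, clustering, scaling, thinning and level minimum, and 3 more were added after seeing the data: cluster 10 as urothelial-like and each side of the 7-day library. Human barcodes entered no comparison. Intervals used scipy 1.17.1, clustering used leidenalg 0.10.2 with igraph 0.11.9 and scikit-learn 1.9.0, tables used pandas 2.3.3 and numpy 2.4.6, and figures matplotlib 3.10.9, under Python 3.11.15.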

Additional observations from a re-analysis of the deposited data

Results flagged for a closer look

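Some genes went in opposite directions in different cell classes under the same pair of libraries, and with 1 library per group none of these differences was tested. Ptges, at 1 day against the bladder, had a log2 ratio of 5.49 in urothelial-like cells and -1.53 in fibroblast-like cells. Ptgs1, in the same pair, had 1.76 in urothelial-like and 1.27 in fibroblast-like cells, against -5.05 in endothelial-like cells.

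Ptgs1 at 7 days against 1 day had log2 ratios of 1.15 in fibroblast-like and 3.44 in endothelial-like cells, against -1.24 in urothelial-like cells. Within 7-day assembloid-side cells the ratio was 0.0324 in urothelial-like, 1.23 in fibroblast-like and 0.12 (-1.07 to 1.29) in endothelial-like cells, so the opposed directions of the whole 7-day classes were not seen there. At 7 days against the bladder Ptgs1 had 2.43 in fibroblast-like cells and -1.61 in endothelial-like cells, within assembloid-side cells 2.51 and -4.93, and within bladder-side cells 0.22 and -0.06.

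Barcodes with mostly human UMIs, which entered no comparison, held the human gene PTGER4. The 7-day library had 40 of its UMIs among 1378175 human UMIs of 74 barcodes with at least 500 genes, or 29.02 CPM (20.7 to 39.5). The 1-day library had 38 among 1389794 UMIs of 115 such barcodes, or 27.34 CPM (19.4 to 37.5). The bladder library had 147 barcodes with mostly human UMIs, against 138 at 7 days and 115 at 1 day, but 0 of the 147 had at least 500 genes. Where the human RNA came from is not given in the sources used here.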

How the results depend on the processing

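Counts of members past 2-fold are given in the order 1 day against bladder, 7 days against bladder, 7 days against 1 day; the main counts were 3, 1 and 3 (urothelial-like), 5, 4 and 2 (fibroblast-like) and 2, 3 and 2 (endothelial-like). Over the alternatives, 112 of 147 counts stayed within 1.5 times the main count and 35 moved. None moved with every shared barcode kept or left out, prostaglandin genes in the clustering, Leiden resolution 2, median-of-ratios scaling or cluster 10 as urothelial-like. With no level minimum the urothelial counts were 7, 5 and 6, the endothelial ones 6, 7 and 4, and the fibroblast ones 8 (1 day against bladder) and 6 (7 days against 1 day). At 100 CPM the urothelial counts at 7 days were 0 against bladder and 1 against 1 day, the fibroblast counts against bladder 2 and 2, and the endothelial counts 1, 1 and 0. Of all genes, 16.5% to 47.4% passed the fold with no minimum and 0.668% to 51.6% at 100 CPM, over the 9 comparisons. In assembloid-side cells the urothelial counts at 7 days were 4 and 0, and those against 1 day 1 in fibroblast-like and 1 in endothelial-like cells. In bladder-side cells the counts at 7 days against bladder were 0 (urothelial), 0 (fibroblast) and 1 (endothelial), and that against 1 day 5 (fibroblast). The fibroblast count at 7 days against 1 day was 0 with doublets kept or cells classed singly by markers, and 1 with thinning (Ptgs2 left) or with at least 1000 genes or under 10% mitochondrial UMIs (Ptgs1 left). The fibroblast count at 7 days against bladder was 2 with mean single-cell CPM and with thinning, and that at 1 day was 3 with doublets kept. The endothelial count at 1 day was 4 with doublets kept and 1 with mean single-cell CPM, which also gave 1 at 7 days against bladder. The urothelial count at 7 days against bladder was 0 at Leiden resolution 0.5. Apart from the settings that change the level minimum or the cells, the cause was not tested.

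Of 586 log2 ratios of single members, 436 stayed, 147 moved and 3 reversed: Ptgs1 at 7 days against 1 day at 0.0324 in assembloid-side urothelial-like and -1.06 in bladder-side fibroblast-like cells, and Hpgd at 7 days against bladder at 0.0079 in bladder-side fibroblast-like cells. No paired analysis was possible because each group had 1 library, and leaving out a replicate was impossible for the same reason. Depth limits classes of few UMIs, such as myeloid-like cells of the bladder, where 3 counts are 8.76 CPM.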
